A study of Arabidopsis thaliana with 8 samples.

Results

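The route from nitrate to asparagine was followed through 9 loci in dark-grown Arabidopsis thaliana seedlings given a short red light treatment. They were chosen as a fixed list of locus codes by their role in this route or, for the transcription factor gene bZIP1, a link to it. The choice was made with earlier results of these data known. They make up 9 of the 27416 transcript models in each library: NRT1.1 (AT1G12110), NIA1 (AT1G77760), NIA2 (AT1G37130), NIR1 (AT2G15620), GLN2 (AT5G35630), GLU1 (AT5G04140), ASN1 (AT3G47340), ASN2 (AT5G65010) and bZIP1 (AT5G49450). All 9 passed the filter on low counts and were tested. The RNA of whole Col-0 seedlings was sequenced after poly(A) selection, with 2 libraries in each of 4 groups. These were phyAB seedlings in red light, phyB seedlings in red light, wild type (WT) seedlings in red light, and WT seedlings kept in the dark. Every seedling was germinated on medium with 1% sucrose, held at 4 °C for 3 days, given 12 h of white light and then grown in darkness for 5 days. The red groups then received 50 µmol m-2 s-1 of red light for 1 h, as the growth protocol gives it; the sample labels print that unit with exponents that differ between libraries. The mutants are named in the labels by gene only, phyB for loss of phytochrome B and phyAB for loss of phytochromes A and B, with no allele. No dark-grown mutants are part of the comparisons, so a genotype difference that existed before the light and a different response to the light cannot be told apart.

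Plants take up nitrate through transporters such as NRT1.1, reduce it to nitrite in the cytosol and to ammonium in the plastid, and fix the ammonium into glutamine and then glutamate. Asparagine synthetases move the amide nitrogen of glutamine onto aspartate, giving asparagine, a carbon-poor store and transport form of nitrogen. In Arabidopsis, light is known to raise the transcripts of nitrate reductase and of the plastid ammonium-fixing enzymes, while ASN1, also known as DARK INDUCIBLE 6, is known for high transcript levels in darkness or under sugar shortage. Phytochromes A and B are the main red and far-red photoreceptors of seedlings; phytochrome A is abundant in dark-grown tissue and is broken down in light.

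Libraries held 15926547 to 22116924 reads assigned to models, and the 9 genes together took 0.208% and 0.208% of them in phyAB, 0.294% and 0.295% in phyB, 0.237% and 0.241% in WT red and 0.201% and 0.198% in WT dark. PHYB transcript was at 50.4 to 52.9 CPM (counts scaled to library size) in phyAB and 62.3 to 64.3 CPM in phyB, against 95.2 to 96 CPM in WT red, and PHYA was at 123.2 to 123.9 CPM in phyAB, against 463.1 to 470.5 CPM in WT red, so both transcripts were reduced but present in the mutants named for them. Libraries of a group differed only a little more than counting noise allows, with a mean chi-square on 1 degree of freedom of 1.34 to 1.47 over the models, and no label states that the paired libraries are separate cultures. P-values therefore reflect only how far these paired libraries spread, possibly for technical reasons. Beside them, a stricter reading is given, for the members where it ends a call and for the other lists as counts with genes named. For it, the 2 libraries of a group were summed and a biological coefficient of variation of 0.1 between cultures was assumed. Markers of root cells summed to 471 to 476 CPM in phyAB, 419 to 434 CPM in phyB, 392 to 394 CPM in WT red and 409 to 415 CPM in WT dark over 11 markers, with none at 0. CASP1 was the largest part, at a mean of 226 CPM in phyAB. Single markers did not all follow the sum: in phyB against WT red 3 were called higher and 1 lower, RHD6, with means of 0.962 and 3.749 CPM. Of all genes tested there, 13.1% were called higher and 14.1% lower. In the stricter reading, 0 of the 11 markers were higher and 1 was lower, where 3.02% of all genes were called. Seed storage transcripts, 7 markers, summed to 54.1 to 55.1 CPM in phyAB, 0.436 to 0.989 CPM in phyB, 0.815 to 0.829 CPM in WT red and 1.45 to 1.6 CPM in WT dark; SESA3 was at 0 in phyB, SESA1, SESA2 and SESA3 were at 0 in WT red, and SESA3 was at 0 in WT dark. Their part in the phyAB results below was not tested. In these bulk samples, fewer cells of a type and less RNA per cell cannot be told apart.

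The upstream sequences of the paralog pairs are shown because ASN1 and ASN2 moved in opposite directions in red light, while NIA1 and NIA2 moved together. Each is the 250 bases before the outermost start of the gene in the RefSeq annotation of TAIR10.1, read 5′ to 3′ on the gene's strand. Capitals mark matches on either strand to the motifs searched, which were CACGTG (the G-box), ACGT (the core bound by bZIP factors, also found within the G-box), GATAAG (the I-box), ACTCAT, AAAATATCT (the evening element), TTATCC and TGAGTCA (GCN4-like).
ASN1, chr3:17441432-17441681, minus strand: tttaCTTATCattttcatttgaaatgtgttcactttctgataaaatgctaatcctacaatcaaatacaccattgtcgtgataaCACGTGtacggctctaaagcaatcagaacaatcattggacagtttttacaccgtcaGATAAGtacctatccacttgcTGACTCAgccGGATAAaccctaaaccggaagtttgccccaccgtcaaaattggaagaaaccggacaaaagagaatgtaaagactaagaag
ASN2, chr5:25968785-25969034, plus strand: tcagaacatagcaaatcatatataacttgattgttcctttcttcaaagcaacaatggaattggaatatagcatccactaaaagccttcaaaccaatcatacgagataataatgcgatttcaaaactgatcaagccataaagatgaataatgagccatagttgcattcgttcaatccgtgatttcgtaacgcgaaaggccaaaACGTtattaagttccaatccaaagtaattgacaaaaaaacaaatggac
NIA1, chr1:29239485-29239734, minus strand: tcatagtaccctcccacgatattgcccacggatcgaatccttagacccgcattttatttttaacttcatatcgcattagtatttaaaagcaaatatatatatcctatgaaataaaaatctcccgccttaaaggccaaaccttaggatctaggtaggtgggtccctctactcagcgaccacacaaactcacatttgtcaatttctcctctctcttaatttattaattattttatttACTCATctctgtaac
NIA2, chr1:14158202-14158451, plus strand: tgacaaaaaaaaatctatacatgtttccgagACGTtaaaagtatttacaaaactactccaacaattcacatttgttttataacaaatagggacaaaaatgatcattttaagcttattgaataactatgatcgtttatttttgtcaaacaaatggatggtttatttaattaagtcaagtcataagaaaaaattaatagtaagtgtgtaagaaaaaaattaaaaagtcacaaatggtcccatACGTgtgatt
The ASN1 window held a G-box at -167 to -162 from the start, I-box letters at -246 to -241 on the reverse strand and at -111 to -106 on the forward strand, TGAGTCA on the reverse strand at -90 to -84 and TTATCC on the reverse strand at -80 to -75. ASN2 held the ACGT core alone, at -48 to -45, NIA1 held ACTCAT at -15 to -10, and NIA2 held ACGT at -219 to -216 and at -10 to -7. Among the 9 windows, the G-box, the I-box letters and TGAGTCA were found in ASN1 alone. TTATCC was found in ASN1 and bZIP1, ACTCAT in NRT1.1 and NIA1, ACGT in NIA2, GLN2, ASN1 and ASN2, and the evening element in none. Of 27443 nuclear gene windows of the same length, 6.49% held the G-box, 44.1% ACGT, 12.3% the I-box letters, 12.3% ACTCAT, 2.36% the evening element, 12.5% TTATCC and 2.83% TGAGTCA. A match is a description of the letters, not a site. The ASN1 window also overlaps the neighbouring gene model AT3G47341, which shares 11 bases with ASN1 on the opposite strand and had 0 reads in all libraries.

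NRT1.1, a transporter that also acts as a nitrate sensor (chr1:4105223-4109601), was highest in phyAB. It had 688.2 and 690.5 CPM in phyAB, 483.1 and 478.3 CPM in phyB, 434.3 and 432.6 CPM in WT red and 631.4 and 620 CPM in WT dark. The 4 groups did not overlap, and red-lit WT lay lowest. The log2 change was -0.53 ± 0.017 (SE) in WT red against WT dark, 0.15 ± 0.019 in phyB against WT red and 0.67 ± 0.016 in phyAB against WT red, with edgeR quasi-likelihood adjusted p of 2.19e-60, 7.77e-11 and 1.7e-75. With the assumed spread between cultures, the first and the second were no longer called (adjusted p of 0.058 and 1), and the third was kept (0.0123). Against WT dark, red-lit phyAB was higher by 0.14 ± 0.013 on the log2 scale (adjusted p 4.67e-19, 0.776 with the assumed spread). Per length, NRT1.1 lay at the 98.1 to 99.1 percentile of models with reads in all 8 libraries, at 328.8 and 330.2 RPKM (reads scaled to model length and library size) in phyAB, 227.8 and 225.3 RPKM in phyB, 198.7 and 197.9 RPKM in WT red and 294.5 and 288.9 RPKM in WT dark.

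NIA1 (chr1:29235721-29239484) and NIA2 (chr1:14158452-14161938), the 2 nitrate reductase genes of Arabidopsis, were more than 2-fold higher in WT red than in WT dark. NIA1 had 290.5 and 281.2 CPM in phyAB, 447.5 and 458.9 CPM in phyB, 414 and 420 CPM in WT red and 193 and 192.3 CPM in WT dark. NIA2 had 294.9 and 295.8 CPM in phyAB, 575.4 and 577.1 CPM in phyB, 515.8 and 533.1 CPM in WT red and 245.9 and 240.8 CPM in WT dark. For both genes the order was WT dark lowest, then phyAB, WT red and phyB, with no overlap between groups. The log2 change in WT red against WT dark was 1.11 ± 0.027 for NIA1 and 1.11 ± 0.022 for NIA2 (edgeR adjusted p of 1.23e-74 and 3.56e-84). In phyAB against WT red it was -0.54 ± 0.025 for NIA1 (adjusted p 4.84e-43, 0.0592 with the assumed spread) and -0.83 ± 0.021 for NIA2 (3.02e-72, and 0.00091 with the assumed spread). Even so, both remained higher in phyAB than in WT dark, by 0.57 ± 0.028 for NIA1 (adjusted p 1.24e-40) and 0.28 ± 0.025 for NIA2 (5.21e-19, 0.463 with the assumed spread).

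Per length, NIA1 and NIA2 kept nearly the same ratio in phyB, WT red and WT dark, and moved to near equality in phyAB. The RPKM of NIA1 over that of NIA2 was 1.02 and 0.981 in phyAB, 0.802 and 0.82 in phyB, 0.828 and 0.813 in WT red and 0.81 and 0.824 in WT dark. The phyAB libraries lay above all 6 others, which overlapped among themselves; the ratio itself was given no test. The longest exact run the transcripts of the 2 genes share is 20 bases.

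NIR1 (chr2:6810395-6812941), which encodes the plastid nitrite reductase that takes electrons from ferredoxin, moved little. It had 225.3 and 227.3 CPM in phyAB, 199.4 and 200.6 CPM in phyB, 199.8 and 208.4 CPM in WT red and 180.2 and 182.8 CPM in WT dark. The phyB and WT red libraries overlapped, phyAB lay above them and WT dark below. The log2 change was 0.17 ± 0.03 in WT red against WT dark (edgeR adjusted p 6.44e-07, 0.735 with the assumed spread), -0.027 ± 0.03 in phyB against WT red (0.559, not called) and 0.15 ± 0.029 in phyAB against WT red (4.22e-06, 0.795 with the assumed spread). Nitrite and nitrate reductase transcripts thus stood in different proportions: the RPKM of NIR1 over that of NIA2 was 1.13 and 1.14 in phyAB, 0.514 and 0.516 in phyB, 0.575 and 0.58 in WT red and 1.09 and 1.13 in WT dark. That ratio was near 1 in phyAB and in WT dark, and well below 1 in phyB and WT red.

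GLN2 (chr5:13830429-13833542), the plastid glutamine synthetase, and GLU1 (chr5:1129785-1138488), the ferredoxin-dependent glutamate synthase, had the same order of groups as the nitrate reductases, with larger rises in WT red against WT dark. GLN2 had 223.1 and 224.7 CPM in phyAB, 421 and 429.7 CPM in phyB, 358 and 360.3 CPM in WT red and 127.2 and 133 CPM in WT dark. GLU1 had 141.1 and 146.6 CPM in phyAB, 392.1 and 384.6 CPM in phyB, 327.3 and 331.8 CPM in WT red and 94.6 and 88.6 CPM in WT dark. No 2 groups overlapped for either gene. In WT red against WT dark the log2 change was 1.47 ± 0.029 for GLN2 and 1.84 ± 0.032 for GLU1 (edgeR adjusted p of 1.91e-84 and 3.69e-92). The phyB libraries were higher than WT red by 0.25 ± 0.024 for GLN2 (1.54e-16) and 0.24 ± 0.025 for GLU1 (8.68e-15), changes that were not called with the assumed spread. In phyAB against WT red, GLN2 fell by 0.68 ± 0.027 and GLU1 by 1.2 ± 0.029 on the log2 scale (8.58e-51 and 1.06e-73). GLU1 shares 79 bases with the model AT5G04150 on the opposite strand; that model had 241 reads over all 8 libraries, against 1650 to 8557 GLU1 reads in a single library.

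**Figure D1:**
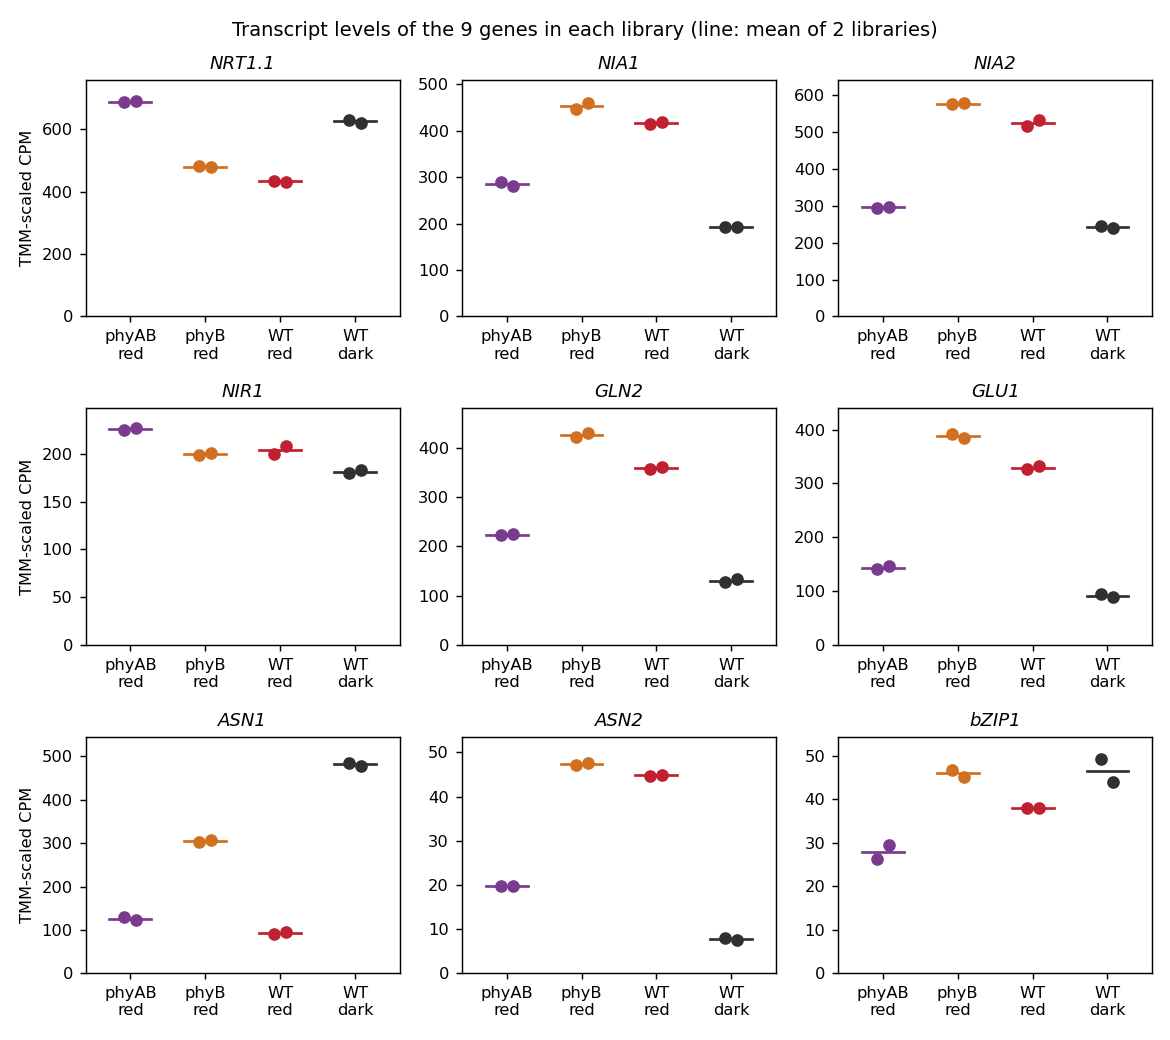
Transcript level of each of the 9 genes in TMM-scaled CPM, 1 panel per gene, with 1 point per library and a line at the mean of the 2 libraries of a group; the vertical axes start at 0 and differ between panels. NIA1, NIA2, GLN2 and GLU1 have their lowest points in WT dark and their highest in phyB, while ASN1 has its highest points in WT dark (478.1 and 485 CPM) and its lowest in WT red (90.2 and 94.9 CPM).

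ASN1 (chr3:17437840-17441431), the dark-inducible asparagine synthetase, showed the strongest fall in red light and the largest difference between phyB and WT among the 9. It had 129.2 and 122.6 CPM in phyAB, 302.3 and 307.5 CPM in phyB, 90.2 and 94.9 CPM in WT red and 485 and 478.1 CPM in WT dark. All 4 groups were apart, in the order WT red, phyAB, phyB and WT dark from low to high. In WT the level was 5.21-fold lower in red light than in the dark (log2 change -2.38 ± 0.03, edgeR adjusted p 3.32e-108). The phyB seedlings held 3.3-fold more than WT in red light (1.72 ± 0.033, adjusted p 1.68e-86, and 2.53e-13 with the assumed spread). In phyAB against WT red the log2 change was 0.45 ± 0.038 (2.27e-21, 0.154 with the assumed spread), and in phyAB against phyB it was -1.27 ± 0.03 (8.58e-76, 3.18e-08 with the assumed spread), so the double mutant lay nearer to WT red than the phyB single mutant did. Red-lit phyB remained below WT dark by 0.66 ± 0.024 on the log2 scale (2.36e-53, 0.00944 with the assumed spread), and red-lit phyAB was 3.82-fold lower than WT dark (7.04e-101).

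ASN2 (chr5:25969035-25972575), a second asparagine synthetase, rose in red light. It had 19.8 and 19.8 CPM in phyAB, 47.1 and 47.6 CPM in phyB, 44.7 and 44.9 CPM in WT red and 8 and 7.5 CPM in WT dark. WT dark was lowest and phyAB second, while phyB and WT red were close together. The level in WT red was 5.8-fold that in WT dark (log2 change 2.54 ± 0.087, edgeR adjusted p 6.12e-57). The phyB libraries both lay above the WT red libraries, but the change of 0.079 ± 0.062 was not called (adjusted p 0.384). In phyAB against WT red ASN2 fell by 1.18 ± 0.072 on the log2 scale (6.45e-32, 1.52e-06 with the assumed spread) and stayed above WT dark by 1.36 ± 0.10 (2.95e-25).

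The proportions of the 2 asparagine synthetase transcripts differed widely by group. The RPKM of ASN1 over that of ASN2 was 6.13 and 5.81 in phyAB, 6.03 and 6.06 in phyB, 1.89 and 1.98 in WT red and 57.2 and 60.1 in WT dark. ASN1 thus made up 85.3 to 86% of their joint RPKM in phyAB, 85.8% in phyB, 65.4 to 66.5% in WT red and 98.3 to 98.4% in WT dark. The phyAB and phyB ratios overlapped although both genes were lower in phyAB: per length, ASN1 was at 59.74 and 56.74 RPKM in phyAB and 137.9 and 140.1 RPKM in phyB, and ASN2 at 9.747 and 9.762 RPKM in phyAB and 22.89 and 23.12 RPKM in phyB. Their transcripts share no exact run longer than 23 bases.

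**Figure D2:**
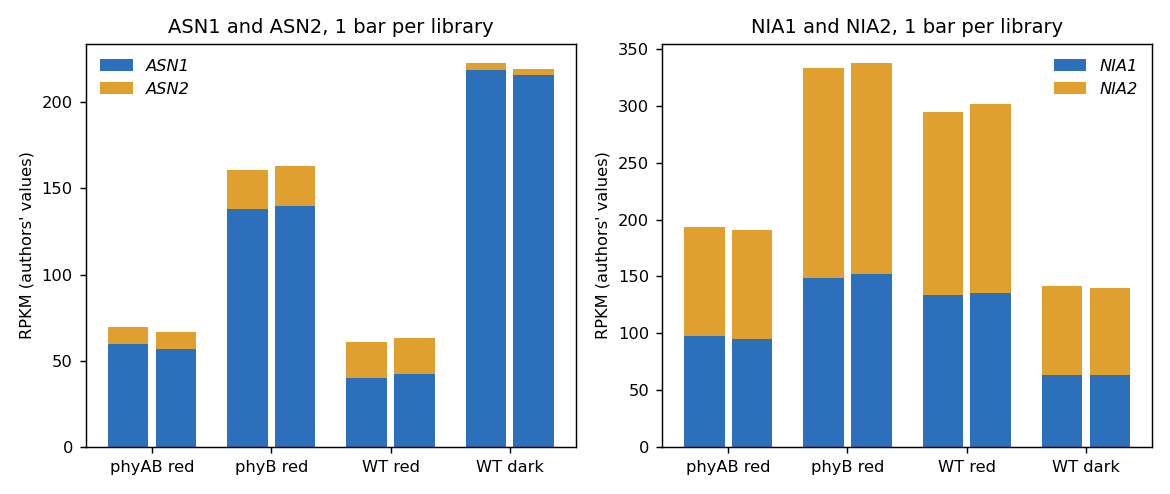
Stacked RPKM of ASN1 and ASN2 (left) and of NIA1 and NIA2 (right), with 1 bar per library, as given by the authors. ASN2 is a thin band in WT dark, where ASN1 holds 98.3 to 98.4% of the pair. Its band is thickest in phyB (22.89 and 23.12 RPKM) and nearly as thick in WT red (21.11 and 21.21 RPKM). The ASN1 share is lowest in WT red, at 65.4 and 66.5%. The bars of NIA1 and NIA2 are nearly equal in phyAB.

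bZIP1 (chr5:20051829-20052735), a transcription factor gene known in Arabidopsis for its response to low sugar and linked there to ASN1, was lowest in phyAB. It had 26.4 and 29.5 CPM in phyAB, 46.8 and 45.1 CPM in phyB, 38 and 37.9 CPM in WT red and 49.2 and 44 CPM in WT dark. The phyB and WT dark libraries overlapped and the other groups were apart. The log2 change was -0.30 ± 0.063 in WT red against WT dark (edgeR adjusted p 2.14e-05) and 0.27 ± 0.063 in phyB against WT red (0.000235); neither was called with the assumed spread (0.448 and 0.878). In phyAB it fell by 0.45 ± 0.069 against WT red (7.97e-09, 0.164 with the assumed spread), by 0.72 ± 0.065 against phyB (2.45e-19, 0.00516 with the assumed spread) and by 0.75 ± 0.065 against WT dark (2.46e-20, 0.00474 with the assumed spread).

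Red light in WT addresses which genes of the route respond within 1 h. Against WT dark, 6 of the 9 genes were higher in WT red (NIA1, NIA2, NIR1, GLN2, GLU1, ASN2), where 24.1% of the 20716 genes tested were called higher, and 3 were lower (NRT1.1, ASN1, bZIP1), where 22.7% were called lower. Of these 6, 5 (all but NIR1) rose at least 2-fold, as did 7.06% of all genes tested, and ASN1 alone fell at least 2-fold, as did 2.67%. The median log2 change of the 9 was 1.11, against 0.0022 over all genes. With the assumed spread, 5 higher and 1 lower were called, and 16.8% of all genes in either direction.

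Other lists of nitrogen genes had smaller median changes. These medians are signed, so rises and falls within a list offset each other and the size of change is not measured. Values that follow for named genes are log2 changes ± SE of genes called by edgeR at an adjusted p below 0.05. Beside the list counts below, 24.1% of all genes tested were called higher and 22.7% lower. Of 14 tested transport genes of 21, 4 were higher and 7 lower (median -0.12). NRT1.7, a nitrate transporter of leaf phloem, rose by 1.32 ± 0.17 and AMT1-2, an ammonium transporter, by 0.42 ± 0.11, while NRT2.6, at 0.462 ± 0.299 CPM in WT red and 1.134 ± 0.237 CPM in WT dark (SD, n = 2 libraries each), fell by 1.23 ± 0.47 and AMT1-3 by 0.61 ± 0.059. NRT2.1, the main inducible high-affinity nitrate transporter of roots, was not tested, with 8 reads over all libraries, and NRT2.2, NRT2.3, NRT2.4, NRT2.5, AMT1-4 and AMT1-5 also had 0 to 9 reads each. Of 17 tested enzyme genes of glutamine, glutamate, aspartate and asparagine metabolism beside the members, 4 were higher and 9 lower (median -0.12). GDH1 and GDH2, the subunits of NAD-dependent glutamate dehydrogenase, fell by 0.91 ± 0.037 and 0.63 ± 0.016. ASN3, the third asparagine synthetase gene, rose by 0.40 ± 0.10 and ASP4, an aspartate aminotransferase gene, by 0.17 ± 0.058. Among 13 genes for the cofactors and reductant of the reductases, 1 was higher (AT2G43760, of the molybdopterin synthase MoaE family, 0.64 ± 0.069) and 6 lower, with G6PD3, a glucose-6-phosphate dehydrogenase, at -0.59 ± 0.11 and SIRB, an enzyme of siroheme synthesis, at -0.34 ± 0.11. Regulators of nitrate signalling were 6 higher and 6 lower of 27, near the shares of all genes. NLP8 rose by 0.87 ± 0.13 and NLP7, the central nitrate-responsive factor of the NIN-like proteins, by 0.24 ± 0.047. NLP3 fell by 0.98 ± 0.13 and CBL1, a calcium sensor, by 0.89 ± 0.10. Of 11 bZIP1 partner and SnRK1 kinase genes, 2 were higher (bZIP11, 0.74 ± 0.17, and BZO2H1, 0.22 ± 0.061) and 3 lower, among them bZIP44 at -1.43 ± 0.16 and the kinase subunit gene AKINBETA1 at -0.54 ± 0.037. With the assumed spread, AMT1-2, ASN3, ASP4, G6PD3, SIRB, NLP7, BZO2H1 and AKINBETA1 were no longer called.

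Of 17 genes known to be induced in darkness or under low energy, 14 fell in WT red and 1 rose, with a median log2 change of -0.99. Of all genes tested, 22.7% were called lower and 24.1% higher. BCAT2, an enzyme of branched-chain amino acid breakdown, fell by 2.46 ± 0.042 and SEN1, also called DARK INDUCIBLE 1, by 1.55 ± 0.029, while DIN9 rose by 0.52 ± 0.12 (edgeR adjusted p of 3.48e-92, 3.27e-87 and 0.000131). With the assumed spread, 10 were lower and none higher, where 16.8% of all genes tested were called in either direction. Counts of the other lists in that reading were 1 higher and 2 lower for transport, 0 and 3 for the other enzymes, and 1 and 0 for the cofactor genes. They were 1 and 4 for the regulators, and 1 and 1 for the bZIP1 partners. Several small counts moved when 1 library was left out: the lower transport genes numbered 4 without WT red replicate 1, the higher enzyme genes 2 without WT dark replicate 1 and 1 without WT dark replicate 2, the higher cofactor genes 2 without WT red replicate 2, the lower cofactor genes 3 without WT red replicate 1, and the higher bZIP1 partners 1 without WT dark replicate 1. Calls lost in this way, by adjusted p in the edgeR fit, were AMT1-2 (0.106) and SIRB (0.174) without WT red replicate 1, NRT2.6 without WT red replicate 2 (0.265) or WT dark replicate 1 (0.15), ASP4 without WT red replicate 1 (0.0703) or WT dark replicate 2 (0.536), and BZO2H1 without WT dark replicate 1 (0.229). NRT2.6 was also lost with DESeq2 (adjusted p 0.0947), and ASP4 with DESeq2 (0.102) and with upper-quartile scaling (0.103).

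The phyB seedlings address how red-lit transcript levels differ when phytochrome B is missing. In phyB against WT red, 7 of the 9 genes were higher, where 13.1% of genes tested were called higher, and none were lower, where 14.1% were called lower; NIR1 and ASN2 were not called. Only ASN1 passed 2-fold, as did 1.13% of all genes tested, and with the assumed spread it was the single member called, where 3.02% of all genes were called. The other 6 rose by 0.12 to 0.27 on the log2 scale, with NIA1 at 0.12 ± 0.024 (edgeR adjusted p 8.96e-06) and NIA2 at 0.14 ± 0.015 (8.82e-14). The median over the members was 0.15, against 0.0019 over all genes. This comparison shares the WT red libraries with the one against WT dark, so the values of the 2 are set side by side only.

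**Figure D3:**
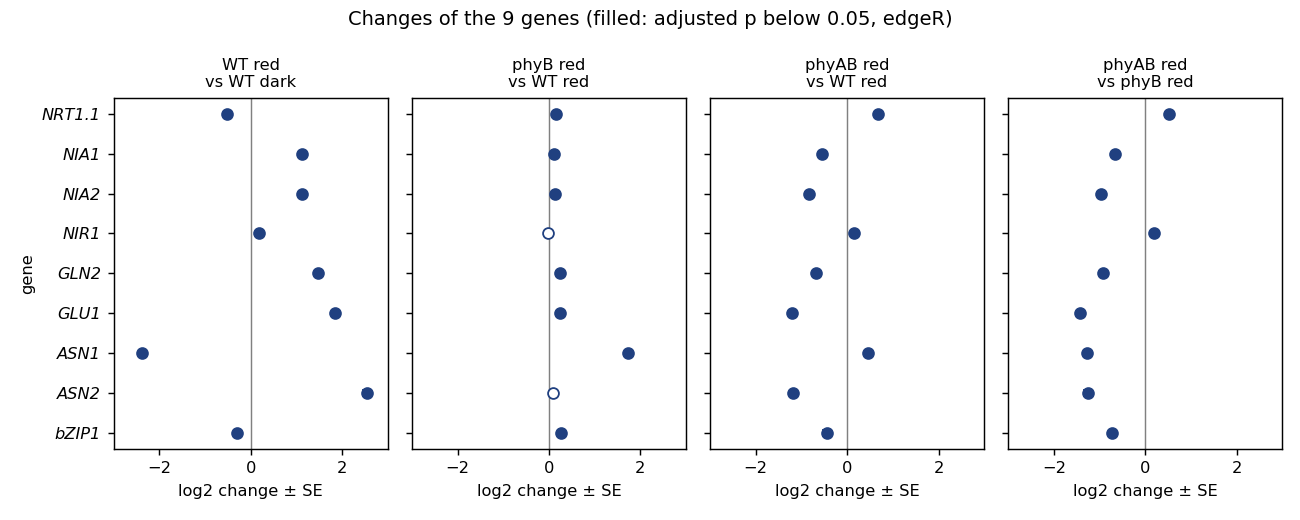
Log2 change of each of the 9 genes in 4 comparisons, positive where the first-named group is higher; bars of 1 SE are mostly smaller than the points, and filled points have an edgeR adjusted p below 0.05. ASN1 lies far to the left in WT red against WT dark (-2.38) and to the right in phyB against WT red (1.72), where the other 8 genes lie between -0.027 and 0.27.

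Among the other lists in phyB against WT red, the transport genes counted 0 higher and 7 lower of 14, the other enzymes 1 and 7 of 17, the cofactor genes 0 and 3 of 13, the regulators 3 and 8 of 27, and the bZIP1 partners 2 and 2 of 11. Their medians were -0.16, -0.13, -0.057, -0.049 and 0.072. Over all genes tested, 13.1% were called higher and 14.1% lower. The nitrate transporter genes NRT1.7 and NRT1.8 fell by 0.69 ± 0.16 and 0.66 ± 0.15. ASP4 and ASP2, both aspartate aminotransferase genes, fell by 0.46 ± 0.06 and 0.29 ± 0.045, while GDH1 rose by 0.19 ± 0.041. In the cofactor list, UPM1, a methyltransferase of siroheme synthesis, fell by 0.21 ± 0.042 and the ferredoxin gene FD3 by 0.18 ± 0.04. BT1, a BTB and TAZ domain protein, rose by 0.40 ± 0.047 and AT3G60320 by 0.25 ± 0.041, while the MADS-box gene ANR1 and the repressor gene HRS1 fell by 0.44 ± 0.08 and 0.38 ± 0.055. Of the bZIP1 partners, BZO2H3 (bZIP63) rose by 0.56 ± 0.07 and AKINBETA1 by 0.18 ± 0.039, whereas bZIP25 and BZO2H1 each fell by 0.16 (SE 0.037 and 0.061). None of these calls in the 5 lists was kept with the assumed spread, where 3.02% of all genes were called in either direction.

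Dark-induced and low-energy genes were 8 higher and 5 lower of 17 in phyB against WT red (median 0.06), and 3 higher and 0 lower with the assumed spread. The shares of all genes were 13.1% higher and 14.1% lower, and 3.02% in either direction with the assumed spread. DIN10, a raffinose synthase-like gene, was at 983.3 ± 4.88 CPM in phyB and 505.3 ± 1.85 CPM in WT red (SD, n = 2 libraries each), a log2 change of 0.96 ± 0.012 (edgeR adjusted p 2.22e-107, 0.000308 with the assumed spread). DIN11, a dioxygenase-like gene at 1.834 ± 0.0513 CPM in phyB and 0.7644 ± 0.0175 CPM in WT red, rose by 1.25 ± 0.36 (0.00378). IVD, of branched-chain amino acid breakdown, and the dormancy-associated gene DRM2 fell by 0.36 ± 0.031 and 0.27 ± 0.0073. Left-out libraries moved some small counts in this comparison: without WT red replicate 1 the lower regulators numbered 5, the lower bZIP1 partners 1 and the higher enzyme genes 2; without WT red replicate 2 the lower bZIP1 partners numbered 1; without phyB replicate 1 a transport gene was called higher; and without phyB replicate 2 the higher enzyme genes numbered 2, the lower bZIP1 partners 1 and the lower dark-induced genes 3. The call of NRT1.8 was lost without WT red replicate 2 (edgeR adjusted p 0.136), and BZO2H1 was lost without either WT red library (0.061 without replicate 1, 0.186 without replicate 2) or without phyB replicate 2 (0.383), as well as with library totals only (0.131) and with DESeq2 (0.21).

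Red-lit phyAB seedlings held less of most of the 9 transcripts than red-lit WT. In phyAB against WT red, 3 of the 9 genes were higher (NRT1.1, NIR1, ASN1), where 22.3% of genes tested were called higher, and 6 were lower (NIA1, NIA2, GLN2, GLU1, ASN2, bZIP1), where 22.7% were called lower. GLU1 and ASN2 fell at least 2-fold, as did 2.95% of all genes tested. The median was -0.54, against 0.0026 over all genes. With the assumed spread, NRT1.1 was called higher and NIA2, GLN2, GLU1 and ASN2 lower, where 13.2% of all genes were called. Summed root markers and seed storage markers were both higher in phyAB than in WT red, and their part in these changes was not tested.

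In phyAB against phyB, which by label differ in phytochrome A, 2 of the 9 were higher (NRT1.1 and NIR1), where 26.1% of genes tested were called higher, and 7 were lower, where 24.1% were called lower. GLU1, ASN1 and ASN2 fell at least 2-fold, as did 4.35% of all genes. The log2 changes of the 7 were -0.66 ± 0.025 for NIA1, -0.96 ± 0.019 for NIA2, -0.93 ± 0.026 for GLN2, -1.43 ± 0.028 for GLU1, -1.27 ± 0.03 for ASN1, -1.26 ± 0.07 for ASN2 and -0.72 ± 0.065 for bZIP1. All 7 falls were kept with the assumed spread, whereas the rises of NRT1.1 (0.52 ± 0.014) and NIR1 (0.18 ± 0.029) were not; 19.1% of all genes were called in that reading. The median was -0.93, against 0.0074 over all genes. Summed root markers and seed storage markers were also higher in phyAB than in phyB, and PHYB transcript was lower. Their part in these changes was not tested.

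More of the other enzyme genes and cofactor genes were higher than lower in phyAB, where most members were lower. Over all genes tested, 22.3% were called higher and 22.7% lower in phyAB against WT red. In phyAB against WT red, the other enzymes were 8 higher and 1 lower of 17 (median 0.12), the cofactor genes 6 and 1 of 13 (0.089), transport genes 6 and 5 of 14 (0.083), regulators 8 and 8 of 27 (0.0069), and bZIP1 partners 1 and 5 of 11 (-0.12). ASP2 rose by 0.48 ± 0.04 and GLN1-3, a cytosolic glutamine synthetase, by 0.47 ± 0.04, and GLT1, the NADH-dependent glutamate synthase, fell by 0.081 ± 0.012. G6PD3 rose by 0.58 ± 0.11 and RFNR1, a root ferredoxin-NADP reductase, by 0.56 ± 0.08, while AT2G43760 fell by 0.55 ± 0.068. Among transporters NRT2.6 rose by 1.11 ± 0.47 and NRT1.7 by 0.69 ± 0.13, and AMT1-2 fell by 0.73 ± 0.11 and NPF6.2 by 0.46 ± 0.02. CBL1 rose by 1.07 ± 0.10 and CBL9, a related calcium sensor, by 0.62 ± 0.089, whereas BT2, a nitrate- and sugar-responsive BTB protein, fell by 0.95 ± 0.026 and NLP7 by 0.47 ± 0.048. In the bZIP list, bZIP44 rose by 1.9 ± 0.15, and BZO2H3 and bZIP9 fell by 0.93 ± 0.084 and 0.53 ± 0.091. With the assumed spread, 13.2% of all genes tested were called in either direction. These lists then held 1 higher and 1 lower transport gene and none of the other enzyme genes or cofactor genes. They also held 2 and 1 regulators, and 1 and 1 bZIP1 partners. The list genes kept were NRT1.7, AMT1-2, CBL1, CBL9, BT2, bZIP44 and BZO2H3. Without phyAB replicate 2 the lower bZIP1 partners numbered 3, and NRT2.6 was not called without phyAB replicate 1 (edgeR adjusted p 0.281) or WT red replicate 2 (0.374). NRT2.6 was also not called with DESeq2 (0.161) or with no filter on low counts (0.0551). With scaling by library totals only, GLT1 was not called (-0.018, adjusted p 0.595).

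Dark-induced and low-energy genes were lower in phyAB than in WT red for 15 of 17, with 1 higher (median -0.26; 3 lower and 1 higher with the assumed spread). The shares of all genes were 22.7% lower and 22.3% higher, and 13.2% in either direction with the assumed spread. TPS11, of the trehalose phosphate synthase family, fell by 0.82 ± 0.03 and DRM2 by 0.72 ± 0.009 (edgeR adjusted p of 1.58e-53 and 1.19e-108), and DIN11 rose by 1.63 ± 0.34 (1.87e-05). ASN1, itself a dark-inducible gene, differed in direction from the 15: it was higher by 0.45 ± 0.038 in phyAB than in WT red. That call was not kept with the assumed spread (adjusted p 0.154), and of the 15 falls only 3 were kept.

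Between phyAB and phyB, the transport genes counted 8 higher and 3 lower of 14, the other enzymes 10 and 0 of 17, the cofactor genes 7 and 1 of 13, the regulators 10 and 8 of 27, the bZIP1 partners 1 and 3 of 11 and the dark-induced genes 1 and 12 of 17. The medians were 0.25, 0.18, 0.28, 0.049, -0.032 and -0.31. Over all genes tested, 26.1% were called higher and 24.1% lower. Among transporters, NRT1.7 rose by 1.38 ± 0.14 and AMT1-3 by 0.64 ± 0.063, and NRT1.9 fell by 0.41 ± 0.051 and NPF6.2 by 0.33 ± 0.019. Both aspartate aminotransferase genes named above rose, ASP2 by 0.77 ± 0.041 and ASP4 by 0.61 ± 0.058. Of the genes for reductant and cofactors, RFNR1 rose by 0.67 ± 0.08 and G6PD2, a plastid glucose-6-phosphate dehydrogenase, by 0.55 ± 0.055, and AT2G43760 fell by 0.50 ± 0.067. The regulators CBL1 and HRS1 rose by 1.04 ± 0.10 and 0.75 ± 0.052, while BT2 and NLP7 fell by 0.91 ± 0.026 and 0.52 ± 0.047. Within the bZIP and kinase list, bZIP44 rose by 1.67 ± 0.15, whereas BZO2H3 fell by 1.49 ± 0.077 and AKINBETA1 by 0.67 ± 0.041. DIN10 and TPS11 fell by 1.15 ± 0.013 and 1.06 ± 0.029, and DRM1, the dark-induced gene that was higher, rose by 0.085 ± 0.024. With the assumed spread, 19.1% of all genes tested were called in either direction. The higher and lower counts were then 3 and 0, 3 and 0, 2 and 0, 3 and 1, 1 and 3, and 0 and 6 for the 6 lists in the same order. Of the genes named here, NRT1.9, NPF6.2, AT2G43760, NLP7 and DRM1 were no longer called. Without phyAB replicate 2 the higher bZIP1 partners numbered 2, and without phyB replicate 1 no dark-induced gene was higher, DRM1 having an edgeR adjusted p of 0.0542.

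**Figure D4:**
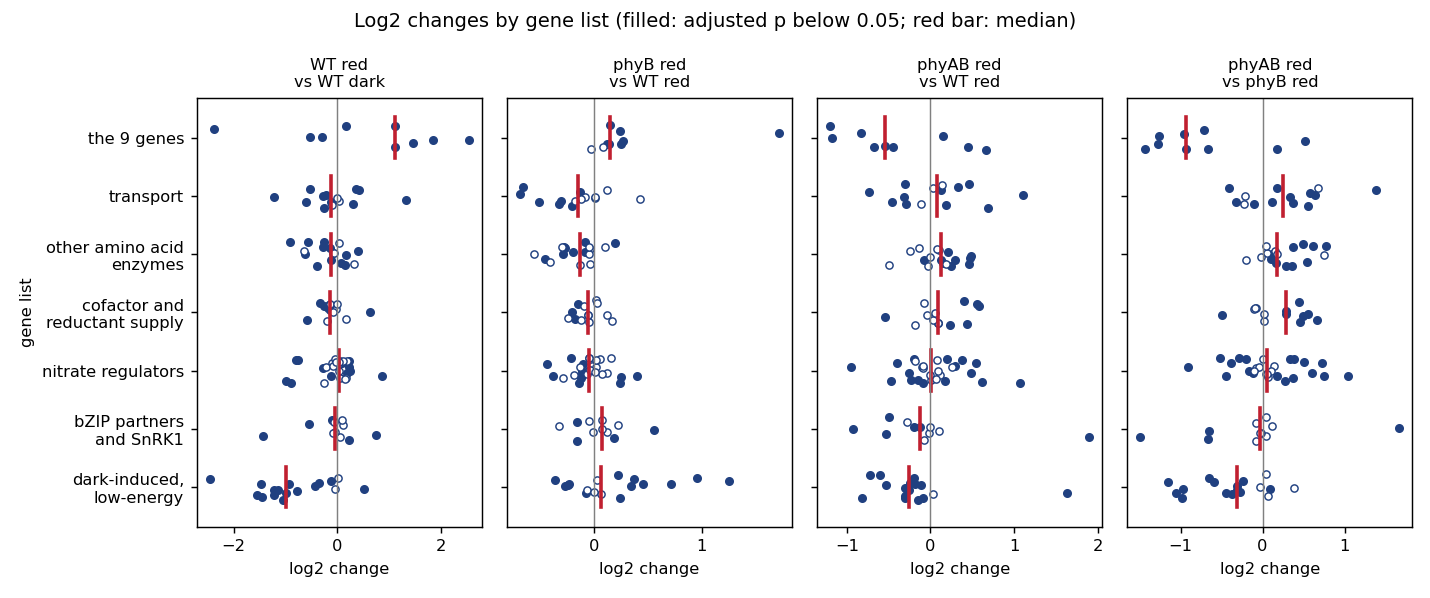
Log2 change of each tested gene in the members and in 6 lists of related genes, in 4 comparisons with their own horizontal scales; filled points have an edgeR adjusted p below 0.05 and the red bar is the list's median. In WT red against WT dark the medians of the members (1.11) and of the dark-induced genes (-0.99) lie far from 0, and in phyAB against phyB the members' median (-0.93) is the lowest of the 7.

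Set against WT dark, most of the 9 genes were called higher in both red-lit mutants, but in phyAB only 4 of them with the assumed spread. In phyB, 6 of the 9 genes were higher, where 27.5% of genes tested were called higher, and NRT1.1 and ASN1 were lower, where 27.1% were called lower; bZIP1 was not called (-0.025 ± 0.06, edgeR adjusted p 0.749). At least 2-fold rises, seen in 8.01% of all genes, were found in 5: NIA1 by 1.24 ± 0.026, NIA2 by 1.24 ± 0.02, GLN2 by 1.71 ± 0.028, GLU1 by 2.08 ± 0.031 and ASN2 by 2.62 ± 0.085. In phyAB, 7 of the 9 were higher, where 27.2% were called higher, and ASN1 and bZIP1 were lower, where 20.9% were called lower. ASN2 alone rose at least 2-fold, as did 6.23% of all genes, and ASN1 alone fell at least 2-fold, as did 1.02%. GLN2 was higher by 0.78 ± 0.031 and GLU1 by 0.65 ± 0.036 in phyAB than in WT dark, both kept with the assumed spread (adjusted p of 0.00207 and 0.0169). Under the assumed spread, 5 higher and 1 lower were called in phyB, and 4 higher and 2 lower in phyAB, where 21.1% and 14% of all genes were called. The calls it ended were those of NRT1.1 (adjusted p 0.198) and NIR1 (0.714) in phyB, and of NRT1.1 (0.776), NIA2 (0.463) and NIR1 (0.377) in phyAB. Medians of the members were 1.24 in phyB and 0.32 in phyAB, against 0.0052 and 0.043 over all genes. Genotype and light both differ in these 2 comparisons and cannot be told apart within them.

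Likeness of pattern was measured as the Euclidean distance between log2 CPM values, centred for each gene, over the 8 libraries and 20707 other tested genes. For ASN1 the nearest were AT4G10150 (distance 0.70), MIOX2, a myo-inositol oxygenase gene (0.76), and DIN10 (0.99). MIOX2 averaged 14.8 CPM in phyAB, 25.81 CPM in phyB, 7.407 CPM in WT red and 36.34 CPM in WT dark. DIN10 averaged 441.7 CPM in phyAB, 983.3 CPM in phyB, 505.3 CPM in WT red and 1395 CPM in WT dark. Unlike ASN1, DIN10 was lower in phyAB than in WT red. For NIA2 the nearest genes were PDE334, a subunit gene of the chloroplast ATP synthase (0.10), AT2G44230 (0.11) and AT1G29070 (0.13). PDE334 averaged 86.03 CPM in phyAB, 171.9 CPM in phyB, 154.4 CPM in WT red and 73.3 CPM in WT dark. NIR1, with its small changes, was nearest to PRP2 (0.074), PAL4 (0.092) and AT1G26850 (0.092). The nearest genes of ASN1 were several times as distant as those of NIA2 or NIR1. The distance was not scaled to the size of a gene's changes, so this difference does not measure how unusual a pattern is.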

How the data were processed

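Poly(A)-selected RNA from whole seedlings was sequenced in 8 libraries. The deposited tables give, per transcript model, a read count and an RPKM value; per the file headers these are reads and RPKM, and the submitters' processing notes name the TAIR10 build. Aligner, counting rule and strand setting: not given in the sources used here. RPKM values, as deposited, equal count per model length scaled to assigned reads, with an implied length whole within 0.01 base for 100.0% of the 24548 models with reads. RPKM was used to describe levels per length and ratios between genes, and was not tested.

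Counts were tested with edgeR 4.0.16 in R 4.3.3: filterByExpr (minimum count 10), TMM scaling, a robust quasi-likelihood fit with 1 coefficient per group over all 8 libraries, and Benjamini-Hochberg adjustment over the 20716 genes kept. Genes were called at an adjusted p below 0.05. SE is the log2 change divided by the square root of its F. CPM values are TMM-scaled; 3 reads correspond to 0.136 to 0.188 CPM. The fit was tested on simulated data first. The stricter reading sums the libraries of a group and uses edgeR's likelihood ratio test with a coefficient of variation of 0.1, where the fit found 1.59%. DESeq2 1.42.0, other scalings, filters, a replicate block and left-out libraries served as alternatives.

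The 9 members and the other lists, 138 loci in all and each found in the tables, were chosen with earlier results of these data known. Names came from the RefSeq table for 133. Genes named were the members, per list and comparison up to 2 called genes with the largest rise and up to 2 with the largest fall, and the 3 genes nearest in pattern to ASN1, NIA2 and NIR1. Positions and upstream sequence are from TAIR10.1, whose release differs from the deposited build's name.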

Additional observations from a re-analysis of the deposited data

How the results depend on the processing

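Of 702 member results under the alternatives, 646 kept their direction and side of the threshold, 52 kept their direction but lost the call (20 with the assumed spread, 32 with a log2 limit of 1) and 4 changed sign, all for changes that were not called. NIR1 in phyB against WT red was -0.027, but 0.016 with library totals only, and -0.059 and 0.0021 without WT red replicate 1 and 2; bZIP1 in phyB against WT dark was -0.025, but ranged over -0.13 to 0.029 with a library left out, with 0.029 without WT dark replicate 1 and 0.0039 without phyB replicate 2. The cause was not tested. Genes called with the assumed spread numbered 3479 in WT red against WT dark (main fit 9689), 625 in phyB against WT red (5633), 2740 in phyAB against WT red (9330), 3956 in phyAB against phyB (10392), 4369 in phyB against WT dark (11306) and 2902 in phyAB against WT dark (9978), since a larger spread is set by construction. With a log2 limit of 1, which removes small changes by construction, they numbered 2017, 449, 1448, 1911, 2268 and 1501 in the same order. DESeq2 called 3660 in phyB against WT red. Members called with the assumed spread were 1 in phyB against WT red and 5 in phyAB against WT red, and with the log2 limit 1 and 2 in these, 3 in phyAB against phyB, 5 in phyB against WT dark and 2 in phyAB against WT dark. With 1 library left out, genes called ranged over 8121 to 8730, 4258 to 4733, 7684 to 8140, 8853 to 9356, 9631 to 10186 and 8284 to 8779, and members called stayed at 9, 7, 9, 9, 8 and 9. With library totals only, the share of calls that were higher was 61.2% against 48.2% in the main fit for phyB against WT red, and 61.4% against 49.6% for phyAB against WT red; no scaling moved the median of all genes by over 0.1. Counts in the 6 lists moved by over 1.5 times in 135 of 864 cases, 60 of them with the assumed spread and 36 with a library left out. Same-numbered libraries did not deviate together (correlations of -0.0302 to 0.00967 over 8989 models). Libraries of a group differed little beyond counting noise, which is independent between libraries, so this cannot show whether the numbers pair the samples. The replicate block called 9699, 5662, 9342, 10413, 11303 and 9990 genes and changed no member call. With 2 libraries a group of unstated origin, small changes such as those of NIR1 and bZIP1 rest on a spread that may be technical.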
